A study of Mus musculus with 3 samples.

Results

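The genes described here are 10 C-type lectin receptor genes, Clec7a, Clec4n, Clec4d, Clec4e, Clec5a, Clec4a1, Clec4a2, Clec4a3, Clec12a and Clec10a. They were chosen by name, as receptors with a C-type lectin-like domain that myeloid cells carry on their surface, and make up 10 of the 55536 Ensembl genes measured. All 10 had 1 TPM or more in every library, a level reached by 17.3% of all genes, noncoding ones included. The genes were chosen with earlier results of these data known, so that count may follow from the choice. TPM scales each library to the same total and allows for transcript length, so it gives a share of transcripts.

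The libraries came from total RNA of the cytosolic fraction of macrophages grown from C57BL/6J bone marrow and held for 10 minutes with Lipid A at 100 ng/ml, the part of lipopolysaccharide that TLR4 senses. The series has 1 group of 3 biological replicates, each a ribosome-depleted library from 1 µg of RNA, and no untreated cells were analysed here, so each value is a level and not an induction. The labels give all replicates the same donor identifier, give no age or sex, and do not say whether the cultures or animals were separate. The tests therefore measure only the spread between these samples, which may be technical. The libraries held 33825547, 54667365 and 43176007 counts on genes. A count of 0 on a gene of 1 kb allows up to 0.0450, 0.0294 and 0.0395 TPM at these depths, taking 3 counts as the limit and covering counting error only. All 12 macrophage markers listed reached 1 TPM in every library, while 4 of 12 neutrophil markers and 2 of 8 dendritic cell markers did, and the neutrophil marker Ly6g was at 0. Coordinates are those of mm10 with GENCODE M21.

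C-type lectin receptors bind sugars, glycolipids or crystals of microbes and damaged cells through a compact extracellular domain. Some carry or borrow an immunoreceptor tyrosine-based activation motif (ITAM), which recruits the kinase Syk and passes the signal through Card9, Bcl10 and Malt1 to NF-kB. Others carry an inhibitory motif (ITIM) that recruits phosphatases, and others serve mainly in uptake. On macrophages they work beside Toll-like receptors in the recognition of fungi and mycobacteria.

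Clec7a and Clec4d were the most abundant of the 10 genes, followed by Clec4n. Clec4a3, Clec12a and Clec4a1 formed a middle group, Clec4a2 and Clec10a lay lower, and Clec5a and Clec4e were lowest. Summed over the 10 genes, the level was 556 TPM in replicate 1, 483 TPM in replicate 2 and 534 TPM in replicate 3, or 525 ± 37.5 TPM (SD, n = 3). That sum equals 0.216% ± 0.0165 of the TPM of nuclear protein-coding genes. The total of those genes leaves out Clec7a, which M21 does not type as protein-coding. Protein-coding genes held only between 23.5% and 25.6% of the deposited TPM, and rescaled to protein-coding genes alone the sum of the 10 genes was 2164 TPM.

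**Figure D1:**
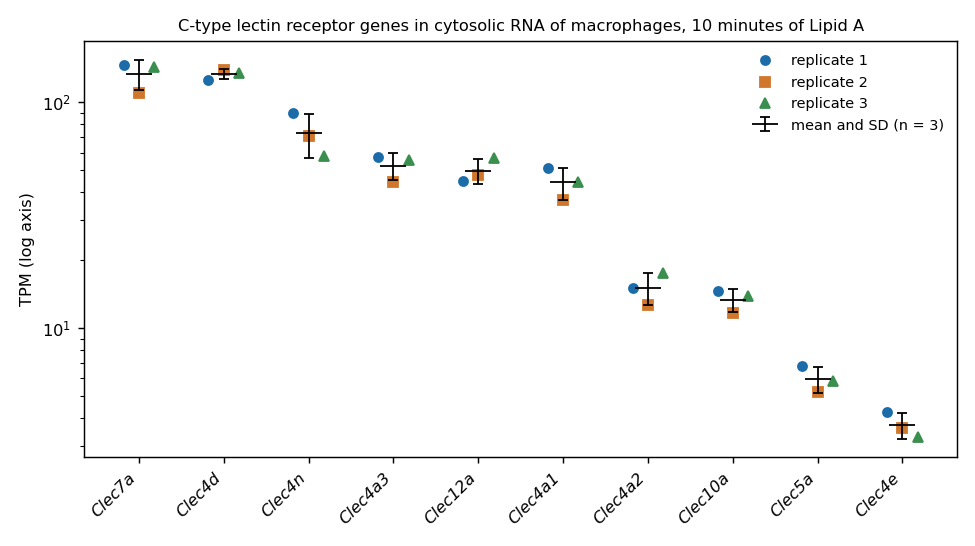
TPM (log axis) of the 10 C-type lectin receptor genes in each replicate, in order of their mean, with horizontal lines for the mean and bars for the SD (n = 3). Clec7a and Clec4d overlap at the top, near 134 and 133 TPM, and Clec4e lies lowest at 3.72 TPM.

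The order of the levels was examined by the difference in log2(TPM + 1) between neighbouring genes within each library. Of 9 neighbouring pairs, 6 had the same sign in all 3 libraries. The widest step was that between Clec4a1 and Clec4a2, at 1.49 ± 0.21 on the log2 scale (SD, n = 3), and the next was between Clec10a and Clec5a, at 1.04 ± 0.07. Clec7a and Clec4d could not be ordered, with a difference of -0.01 ± 0.29 and Clec7a higher in 2 of 3 libraries. Clec4a3 and Clec12a (0.07 ± 0.25) and Clec12a and Clec4a1 (0.17 ± 0.32) likewise changed places between libraries. The difference between Clec4a2 and Clec10a, 0.16 ± 0.15, had 1 sign in every library but was close to its SD. With 3 libraries an exact permutation test that flips signs, two-sided, cannot go below p = 0.25, or 0.375 after Benjamini-Hochberg adjustment over the 9 pairs, which is the value of the 6 pairs with 1 sign.

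The receptors that signal through ITAM adaptors or an ITAM-like motif of their own were taken first. Clec7a encodes Dectin-1, the receptor for fungal beta-glucans, whose cytoplasmic tail carries a single ITAM-like repeat (ENSMUSG00000079293.11, chromosome 6, 129461591 to 129472779, minus strand). It had 146, 110.5 and 144 TPM in replicates 1, 2 and 3, or 134 ± 20.1 TPM (SD, n = 3). Replicate 2 was the low one. Its mean was above that of 97.2% of the protein-coding genes that reached 1 TPM in every library.

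M21 gives Clec7a the gene type polymorphic pseudogene, a type for genes that are coding in some genomes and not in others, although Clec7a-201 and Clec7a-202 are annotated as coding. Of the TPM of Clec7a, Clec7a-201 took 37.9% ± 1.94, Clec7a-202 took 31.9% ± 0.48 and Clec7a-204, the transcript of the pseudogene type, took 29.8% ± 2.35 (SD, n = 3). Clec7a-202 lacks the 135-base exon that encodes the stalk between membrane and lectin domain. The transcripts with that exon are Clec7a-204 and, without the first 10 bases of the exon, Clec7a-201. Together they took 67.7% ± 0.42 of the TPM and 67.2% ± 0.58 in the second quantification. The exon adds 45 codons and keeps the frame. It lies at chr6:129468869-129469003 on the minus strand of mm10 and is shown in capitals between 15 bases of each neighbouring exon, as Clec7a-204 reads it.
Clec7a-204: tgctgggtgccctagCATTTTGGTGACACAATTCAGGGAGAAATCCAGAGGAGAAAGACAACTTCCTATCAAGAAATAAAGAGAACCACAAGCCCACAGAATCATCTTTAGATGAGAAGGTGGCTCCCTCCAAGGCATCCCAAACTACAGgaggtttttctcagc

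The balance of Clec7a with and without the stalk exon varied little between libraries. In replicates 1, 2 and 3 transcripts without it held 32.2%, 31.3% and 32.1% of its TPM, so the lowest and highest libraries lay within 1 percentage point. On counts the same transcript took 9.86% ± 0.15, because Clec7a-202 is annotated at 707 bases with 18 bases of 3′ UTR, against 2272 bases with 1453 bases of 3′ UTR for Clec7a-204. The share in TPM thus rests on where M21 ends Clec7a-202.

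Clec7a-201 and Clec7a-204 have coding sequences of 732 bases each that differ at 8 bases, from position 203 to position 211 counted from the start codon. The 10 bases in capitals below cover them. Clec7a-201 takes them from chr6:129470889-129470898, the end of the preceding exon extended, and Clec7a-204 from chr6:129468994-129469003, the start of the stalk exon (both minus strand).
Clec7a-201: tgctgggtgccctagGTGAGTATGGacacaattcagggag
Clec7a-204: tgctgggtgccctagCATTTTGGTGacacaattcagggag

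Within the coding sequence, reads must cover that junction to tell both transcripts apart. Clec7a-201 and Clec7a-204 also differ slightly in annotated length, at 2277 and 2272 bases. The deposited posterior SD was 7.80% of the count for Clec7a-201 and 9.79% for Clec7a-204, against 1.72% for Clec7a-202. In the second quantification Clec7a-204 took 33.7% ± 1.79 and Clec7a-201 took 33.4% ± 2.36, so which of them was higher depended on the quantification.

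Clec4n encodes Dectin-2, a receptor for fungal alpha-mannans that signals through the Fc receptor gamma chain (ENSMUSG00000023349.14, chromosome 6, 123229843 to 123247021, plus strand). It had 90.1, 70.7 and 57.9 TPM in replicates 1, 2 and 3, or 72.9 ± 16.2 TPM (SD, n = 3). Replicate 1 was highest and replicate 3 lowest, and no other of the 10 genes differed as much between libraries. Clec4n-201 took 67.8% ± 2.01 of the TPM and Clec4n-202, which lacks an exon of 102 bases or 34 codons, took 28.8% ± 1.96. The second quantification gave 70.8% and 23.7%. The exon that sets them apart lies at chr6:123232093-123232194 on the plus strand and is in capitals.
Clec4n-201: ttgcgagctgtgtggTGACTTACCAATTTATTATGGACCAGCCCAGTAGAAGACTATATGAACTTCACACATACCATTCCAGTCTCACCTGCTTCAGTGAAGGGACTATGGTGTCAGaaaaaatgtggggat

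Clec4d encodes MCL, a partner of Mincle in the response to mycobacterial glycolipids (ENSMUSG00000030144.4, chromosome 6, 123262111 to 123275265, plus strand). It had 126, 139.6 and 135 TPM in replicates 1, 2 and 3, or 133 ± 6.99 TPM (SD, n = 3). The highest library was 1.16 times the lowest on CPM, counts scaled to library size, here with TMM factors. That was the smallest ratio of the 10 genes in this table but not in the second, where it was 1.19 for Clec4d and 1.12 for Clec5a. The coding Clec4d-201 took 77.7% ± 1.15 of the TPM. Clec4d-203, annotated as a target of nonsense-mediated decay, held 19.5%, 22.7% and 21.1% across replicates 1, 2 and 3, and 27.0% ± 3.71 (SD, n = 3) in the second quantification. It lacks 77 bases of Clec4d-201, which is not a multiple of a codon, and its annotated coding sequence has 237 bases against 657. Both transcripts differ beyond those 77 bases, since Clec4d-203 is annotated at 910 bases and Clec4d-201 at 1323. The share in TPM thus rests in part on the annotated lengths, and on counts Clec4d-203 took 14.4% ± 1.24. Among 1825 genes at 5 TPM or more with an annotated target of that decay, 12.2% gave it a share of TPM at least as large. The median share was 1.45%. Clec4n, the other of the 10 genes in that set, gave it 0.903%. The 77 bases, in capitals, lie at chr6:123267992-123268068 on the plus strand.
Clec4d-201: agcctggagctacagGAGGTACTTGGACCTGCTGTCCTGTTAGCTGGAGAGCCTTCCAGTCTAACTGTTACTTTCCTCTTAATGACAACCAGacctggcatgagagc

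Clec4e encodes Mincle, the receptor for trehalose dimycolate and for a nuclear protein released by dying cells (ENSMUSG00000030142.10, chromosome 6, 123281789 to 123289870, minus strand). It had 4.24, 3.61 and 3.31 TPM in replicates 1, 2 and 3, or 3.72 ± 0.475 TPM (SD, n = 3), the lowest of the 10 genes, below Clec4d in every library. The coding Clec4e-201 took 87.3% ± 3.72 of its TPM. Transcripts with a retained intron took 11.1%, 12.2% and 6.34% in replicates 1, 2 and 3, and in the second quantification 21.4%, 15.5% and 5.06%. Replicate 3 had the lowest share in both. Clec4e had the smallest summed count of the set, 2065.

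Clec5a encodes a receptor that pairs with the adaptors DAP12 (Tyrobp) and DAP10 (Hcst) and binds dengue virus (ENSMUSG00000029915.14, chromosome 6, 40574894 to 40585821, minus strand). It had 6.81, 5.24 and 5.82 TPM in replicates 1, 2 and 3, or 5.96 ± 0.794 TPM (SD, n = 3). Most of this was not annotated as coding. Clec5a-201 is a processed transcript of 1745 bases. It lacks 2 whole exons, 197 bases in all, of the coding Clec5a-202, which at 3747 bases is also longer beyond those exons. Clec5a-201 took 57.0%, 63.2% and 64.3% of the TPM, and the coding transcripts together took 38.5% ± 3.93. The second quantification gave 57.7% and 42.3%. Clec5a was the only one of the 10 genes whose highest transcript in the first quantification was of a noncoding type, which held for 4.22% of the 9383 coding genes at 1 TPM or more.

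Clec4a2 and Clec12a carry an ITIM. Clec4a2 encodes DCIR, whose loss in mice leads to autoimmunity with age (ENSMUSG00000030148.15, chromosome 6, 123106428 to 123143999, plus strand). It had 15.1, 12.7 and 17.6 TPM in replicates 1, 2 and 3, or 15.1 ± 2.48 TPM (SD, n = 3), with replicate 3 highest. Transcripts without an exon of 72 bases or 24 codons took 63.6%, 67.1% and 70.9% of the TPM, and the transcript that has it took 29.7%, 28.1% and 24.6%. The shorter form was the larger in all 3 libraries, and in the second quantification it took 68.9% ± 3.70 against 24.7% ± 1.21. The exon, in capitals, lies at chr6:123139057-123139128 on the plus strand.
Clec4a2 exon: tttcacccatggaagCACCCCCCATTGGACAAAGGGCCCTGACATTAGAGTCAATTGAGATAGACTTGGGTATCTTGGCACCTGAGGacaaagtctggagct

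Clec12a encodes MICL, an inhibitory receptor that senses uric acid crystals (ENSMUSG00000053063.11, chromosome 6, 129342691 to 129365303, plus strand). It had 44.7, 47.9 and 56.8 TPM in replicates 1, 2 and 3, or 49.8 ± 6.27 TPM (SD, n = 3), and replicate 3 stood above the other two. Clec12a-201 took 98.6% ± 0.47 of the TPM and 93.0% ± 4.74 in the second quantification.

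Clec4a1 and Clec4a3 encode relatives of DCIR named DCIR4 and DCIR3. Clec4a1 (ENSMUSG00000049037.8, chromosome 6, 122921848 to 122934619, plus strand) had 51.4, 37.1 and 44.3 TPM, or 44.3 ± 7.15 TPM (SD, n = 3), all on its 1 annotated transcript. Clec4a3 (ENSMUSG00000043832.13, chromosome 6, 122952515 to 122969875, plus strand) had 57.6, 44.4 and 55.5 TPM, or 52.5 ± 7.08 TPM. In both genes replicate 1 was highest and replicate 2 lowest. Its most abundant transcript took 52.8% ± 2.10 of the TPM and the next one 44.8% ± 2.26, and both have a coding sequence of 711 bases.

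Clec10a encodes MGL1, an uptake receptor for galactose and N-acetylgalactosamine, and is the only one of the 10 genes on another chromosome (ENSMUSG00000000318.16, chromosome 11, 70156197 to 70170834, plus strand). It had 14.6, 11.6 and 13.8 TPM in replicates 1, 2 and 3, or 13.3 ± 1.53 TPM (SD, n = 3). Its close relative Mgl2 on the same list of lectins had 0.57 ± 0.0436 TPM. Clec10a shared 14.8% of its 31-base words with other genes, most of them with Mgl2, so the split of reads between both is less certain than for the other members. The deposited posterior SD of the Clec10a count was at most 0.57 counts. Clec10a-202 and Clec10a-201 took 48.2% ± 3.51 and 47.3% ± 4.73 of the TPM, and they differ in the coding sequence by the 3 bases in capitals, at chr11:70168583-70168585 on the plus strand. The shares crossed between libraries, with Clec10a-202 ahead in replicates 1 and 2 and Clec10a-201 ahead in replicate 3.
Clec10a-201: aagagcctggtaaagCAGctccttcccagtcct

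**Figure D2:**
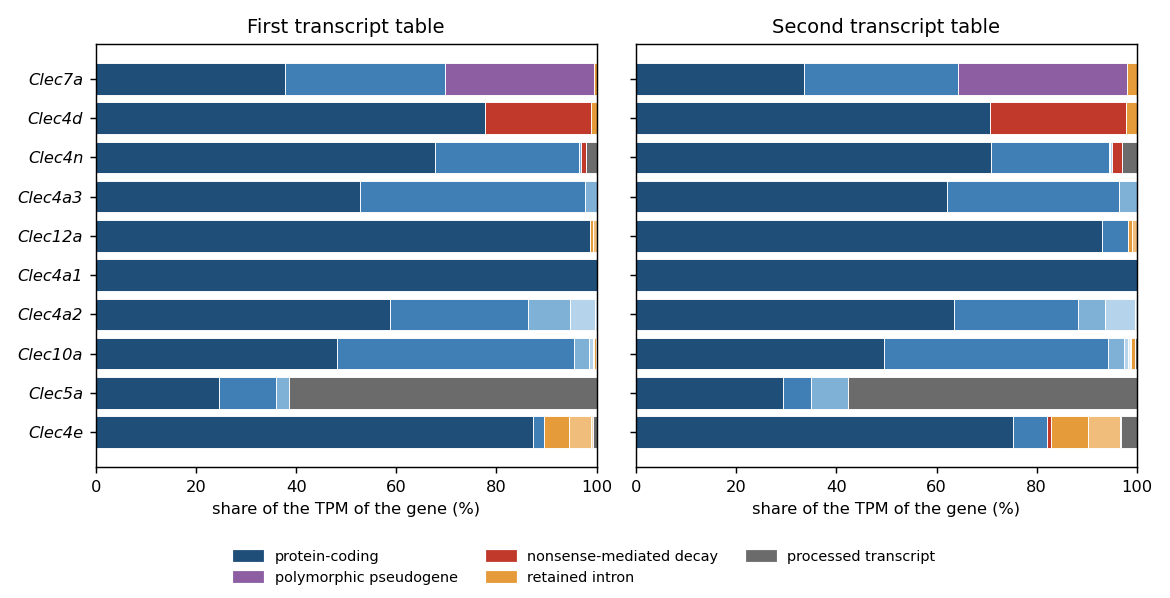
Share of each gene's TPM (percent, x axis) in each annotated transcript, as the mean of 3 libraries, in the first transcript table (left) and in the second (right), with colours for the transcript type and shades for transcripts of 1 type. The pseudogene-type transcript of Clec7a took 29.8% and 33.7%, the decay target of Clec4d 21.1% and 27.0%, and the processed transcript of Clec5a 61.5% and 57.7%.

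The gene levels were then compared between both quantifications, on TPM rescaled over protein-coding genes. Among the 9 genes at 5 TPM or more, all but Clec4e, 0 differed by over 1.5-fold in the same direction in every library, while 1.67% of 6172 genes did in each direction. The largest difference was that of Clec5a, 0.17 ± 0.06 on the log2 scale (SD, n = 3), higher in the second. After Clec10a, the largest share of 31-base words found in other genes was that of Clec4a2, 10.9%, with Clec4a4 and Clec4b1 as the main partners. Clec4a1, Clec4d and Clec5a shared none, and the other 5 genes shared between 0.0992% and 2.19%.

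Position was not used to choose the genes, but they were chosen as myeloid receptors with earlier results of these data known. Their contrast in level with neighbours that were not chosen may therefore follow from that choice. Of the 10, 6 lay within 368 kb of chromosome 6 (122921848 to 123289870) and 2, Clec12a and Clec7a, within 130.1 kb further along (129342691 to 129472779). In the first stretch the 6 genes summed to 322 TPM and the 7 other annotated genes, of which 3 are coding, to 1.72 TPM. Clec4b1 was the only one of those 7 above 1 TPM, at 1.40 ± 0.17 TPM, and the closest relatives Clec4a4 and Clec4b2 had 0.28 and 0.0367 TPM. In the second stretch Clec12a and Clec7a summed to 183 TPM and the 5 genes between them to 0.83 TPM. Clec1b, Clec9a and Clec1a lay there at 0.453, 0.11 and 0.243 TPM, and Clec12b at 0. Clec1b and Clec9a overlap in the annotation, so the split of reads between them is uncertain. No annotated gene overlaps an exon of any of the 10 genes.

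**Figure D3:**
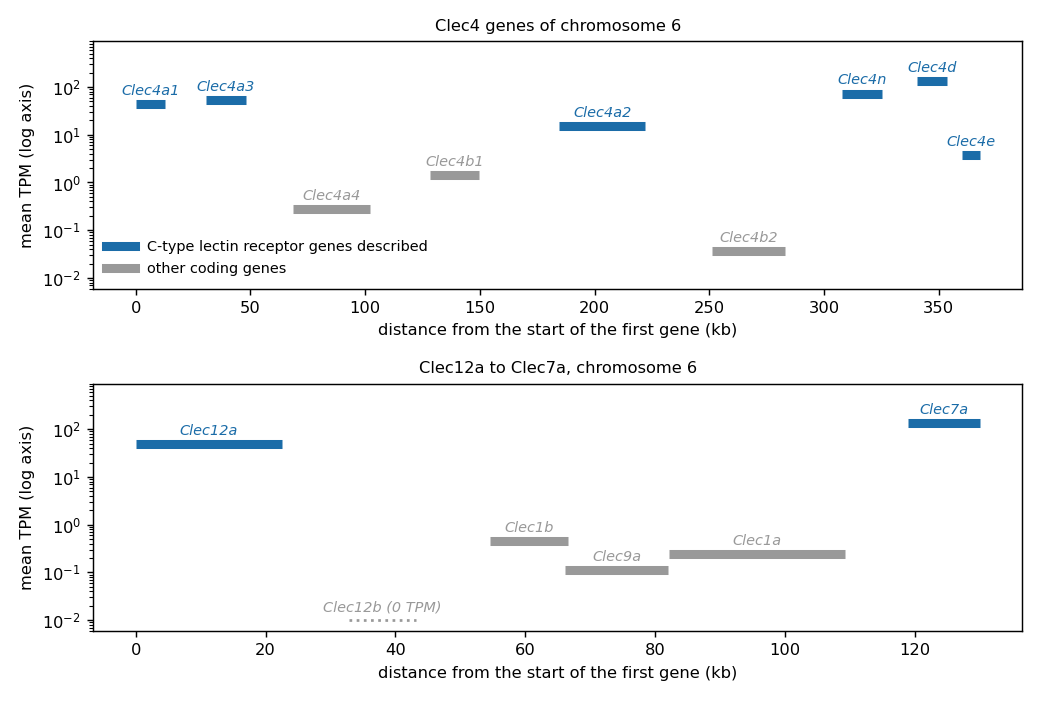
Mean TPM (log axis) of the coding genes in both stretches of chromosome 6 against the distance from the start of the first gene (kb), with bars spanning each gene. The 8 genes of the set found there (blue) lie at 3.72 TPM or more and the coding genes between (grey) at 1.40 TPM or less, with Clec12b, at 0, drawn as a dotted line.

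The libraries were compared with a chi-square test of each gene's rounded counts against TMM library sizes, adjusted by the Benjamini-Hochberg method over 13494 genes. It asks only whether libraries differ by more than counting error. All 10 genes passed at 0.05, as did 50.1% of all genes tested and 63.5% of the 6699 genes with at least as many counts as Clec4e, so this is common at these depths. In a bulk sample, fewer cells that express a gene and less RNA per cell cannot be told apart. The differences were of limited size. None of the 10 genes had a highest library at 2 times the lowest or more in TPM. Such genes made up 3.59% of the 9944 genes whose mean reached 1 TPM. At that share, their absence among 10 genes does not set these genes apart.

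On TMM-scaled CPM, Clec4n differed most, with 159, 132 and 98.5 CPM in replicates 1, 2 and 3 and a ratio of highest to lowest of 1.61. Clec4e was next, with 19.3, 15.5 and 13.2 CPM and a ratio of 1.46. Both were highest in replicate 1 and lowest in replicate 3. Clec12a ran the other way, with 189.7, 211 and 227 CPM, and Clec4a2 was also highest in replicate 3, at 27.8 CPM against 24.1 and 22.3. Clec4d was highest in replicate 2. The other genes, Clec7a, Clec4a3, Clec4a1, Clec10a and Clec5a, were highest in replicate 1, with ratios between 1.19 and 1.33. That made 7 of the 10 genes called and highest in replicate 1, while 1 was highest in replicate 2 and 2 in replicate 3. Of the 6765 genes called, 2131 were highest in replicate 1, 1966 in replicate 2 and 2668 in replicate 3. As shares of all genes tested, called or not, these are 15.8%, 14.6% and 19.8%. The same 7 of 10 were counted on deposited TPM, with DESeq2 size factors, with library totals and in the second table, comparisons added after the data were seen.

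**Figure D4:**
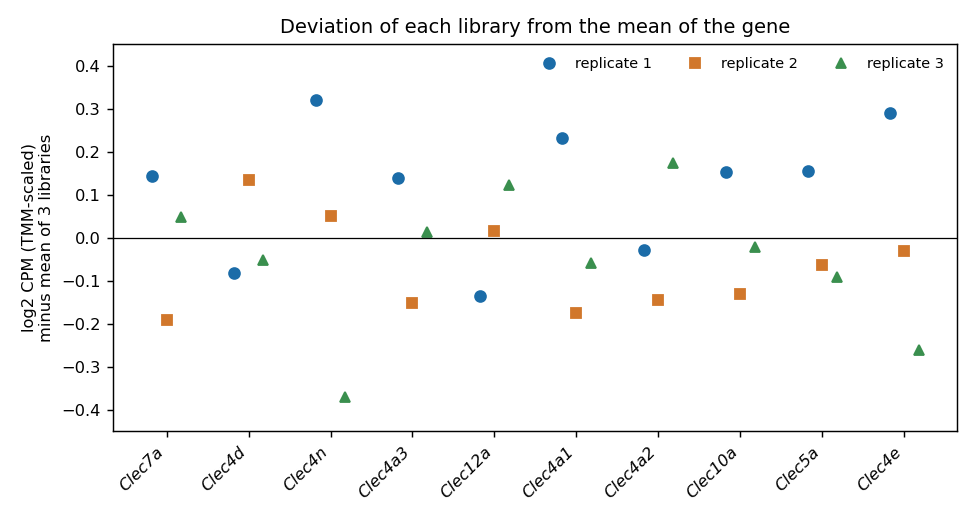
Deviation of each library from the gene's mean over 3 libraries, in log2 CPM scaled by TMM (y axis), for the 10 genes in order of their mean TPM. Clec4n and Clec4e are highest in replicate 1 and lowest in replicate 3, and Clec12a runs the other way.

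The calls of some genes rested on 1 library. Without replicate 1, Clec5a (ratio 1.02, adjusted chi-square p = 0.828) and Clec10a (1.08, adjusted p = 0.124) no longer passed. Without replicate 2 Clec4d did not (1.02, adjusted p = 0.239), and without replicate 3 Clec4a2 did not (1.09, adjusted p = 0.129). In the second table Clec5a did not (1.12, adjusted p = 0.0928). The spread estimated by edgeR as a coefficient of variation had a median of 9.95% over the 10 genes, from 8.26% for Clec4d to 16.0% for Clec4n, beside 11.0% over all genes tested and 7.37% over genes at 5 TPM or more. The ratio of highest to lowest was above the median of those 6100 genes, 1.11, in all 10, although Clec4e, at 3.72 TPM, is not among them. Over all genes tested the median ratio was 1.165, and Clec4d, at 1.162, lay below it.

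Other sets of genes also differed between these libraries. The 6 inflammatory response genes listed, all at 1 TPM or more, summed to 45.8, 86.4 and 176 TPM in replicates 1, 2 and 3. The differences in that sum lay in Ccl5, a chemokine gene with 12.2, 35.4 and 73.0 TPM, and in Saa3, which encodes a serum amyloid A protein and had 4.24, 22.9 and 75.1 TPM. Tnf (6.05, 7.04 and 7.67 TPM) and Il1b (1.85, 1.86 and 2.19 TPM) were also highest in replicate 3 on TPM, but by far less. Il1b did not differ beyond counting error (adjusted chi-square p = 0.350). Nfkbia (17.8, 16.1 and 15.1 TPM) and Cxcl2 (3.64, 3.10 and 2.51 TPM) were lowest in replicate 3. The 6 cell division genes summed to 70.4, 81.4 and 132 TPM. The neutrophil markers summed to 30.6, 44.1 and 44.3 TPM, with Ly6g at 0 and S100a8 and S100a9 at most 13.8 and 20.8 TPM. The dendritic cell markers summed to 4.09, 4.45 and 5.44 TPM. Their part in the differences of Clec4n, Clec4e, Clec12a and the other genes was not tested.

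The genes that carry the signal of these receptors inside the cell were measured from fixed lists. Of 11 adaptors, proximal kinases and phosphatases, 9 reached 1 TPM in every library. The ITAM adaptors were far the highest, with Tyrobp (DAP12) at 826 ± 65.3 TPM and Fcer1g (the Fc receptor gamma chain) at 567 ± 70.6 TPM (SD, n = 3), both above Clec7a and Clec4d in every library. Hcst (DAP10) had 11.1 ± 1.36 TPM. Fcer1g, the adaptor of Clec4n, Clec4d and Clec4e, had 648, 534 and 519 TPM in replicates 1, 2 and 3, and 519, 470.4 and 409 CPM scaled by TMM. Clec4n and Clec4e were likewise highest in replicate 1 and lowest in replicate 3, and Clec4d was not. On CPM scaled by TMM, Tyrobp and Lyn had the same order of libraries as Fcer1g. For Lyn this was narrow, with 227 and 224 CPM in replicates 2 and 3. Prkcd, Plcg2 and Malt1 of the relay to NF-kB, described below, also had that order. Other orders were seen in Vav1, Vav3, Bcl10 and Card9 of that relay and in Hcst, Syk, Src, Fgr, Inpp5d, Ptpn6 and Ptpn11. How many of all genes share the order was not counted, and a link between these genes and the receptors was not tested. On TPM, Tyrobp and Lyn were lowest in replicate 2, at 756 and 36.7 TPM. The kinase Syk had 65.4 ± 2.48 TPM, and its libraries did not differ beyond counting error (ratio 1.01, adjusted chi-square p = 0.679). The phosphatases that ITIM receptors recruit, Inpp5d (SHIP-1), Ptpn6 (SHP-1) and Ptpn11 (SHP-2), had 48.2 ± 1.19, 46.4 ± 2.15 and 10.1 ± 0.625 TPM. The kinase Lyn had 40.5 ± 4.28 TPM, while the kinases Src and Fgr stayed below 1 TPM.

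All 7 genes of the relay to NF-kB reached 1 TPM in every library. The kinase Prkcd was highest at 45.4 ± 3.71 TPM, followed by the exchange factor Vav1 (31.3 ± 1.65), the phospholipase Plcg2 (18.1 ± 0.512), Bcl10 (16.5 ± 1.32) and Vav3 (13.4 ± 1.02). Card9, the scaffold of the complex, had 6.88 ± 0.459 TPM and Malt1, its protease, 3.37 ± 0.555 TPM (SD, n = 3). The mean of Card9 was above those of Clec5a and Clec4e and below those of the other receptor genes. On TPM Malt1 lay below all 10 in every library, but in replicate 3 only narrowly, at 3.28 against 3.31 TPM for Clec4e. On CPM scaled by TMM, which does not allow for transcript length, Malt1 was above Clec4e. It had 28.8, 26.2 and 25.6 CPM in replicates 1, 2 and 3, against 19.3, 15.5 and 13.2 CPM for Clec4e.

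Other lectin genes were mostly low. Of 20 further C-type lectin genes, 3 reached 1 TPM in every library: the mannose receptor Mrc1 (127 ± 22.1 TPM), Cd302 (7.13 ± 1.22 TPM) and Colec12 (5.28 ± 0.872 TPM). Mrc1 had 109, 119.7 and 152 TPM in replicates 1, 2 and 3, a range that overlapped those of Clec7a and Clec4d, and was highest in replicate 3. Cd207 and Cd209b, Cd209e and Cd209g were at 0 in all 3 libraries. Of the 23 other genes whose symbol starts with Clec, 4 reached 1 TPM: Clec2d (47.5 ± 3.85 TPM), Clec16a (3.64 ± 0.246), Clec2i (1.48 ± 0.192) and Clec4b1. Clec16a, despite its name, is known as a regulator of mitophagy. Another 9 were at 0 in every library.

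**Figure D5:**
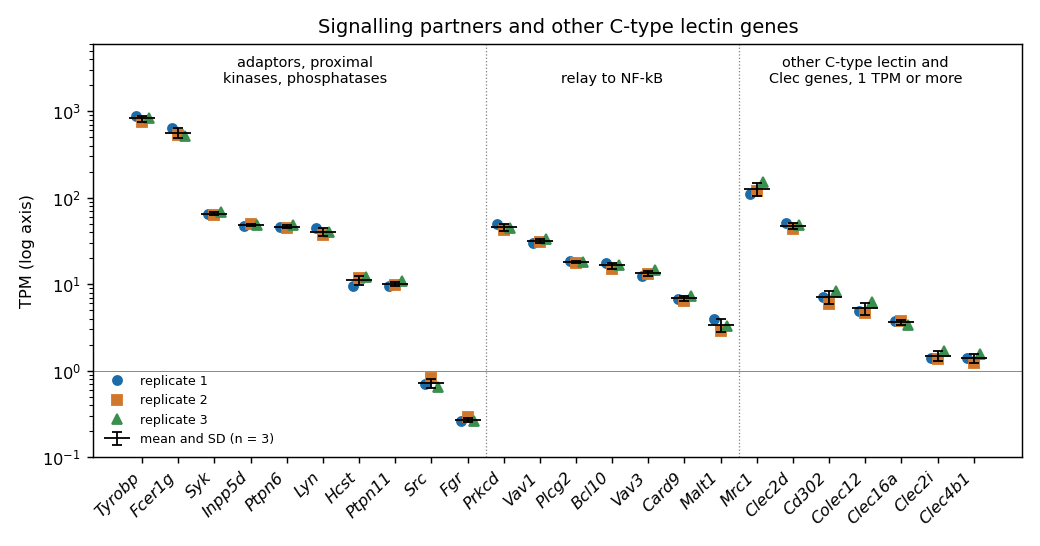
TPM (log axis) of the signalling partners named and of the other lectin genes whose mean reached 1 TPM, in each replicate, with the mean and SD (n = 3) and a grey line at 1 TPM. Tyrobp and Fcer1g stand highest at 826 and 567 TPM, Card9 and Malt1 lie lowest in the relay, and Src and Fgr fall below 1 TPM.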

How the data were processed

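Total RNA of the cytosolic fraction was sequenced in 3 libraries of 1 group, so no groups were contrasted. Per the file headers, the authors' gene tables and first transcript tables hold expected counts and TPM on mm10 with M21, and a posterior SD of the count. The authors' second transcript tables hold estimated counts and TPM on the same annotation. Not given in the sources used here are the quantifiers, their versions and the strand of counting. Entries that name no Ensembl gene were left out, and 86 genes are not in the second table.

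From these files, expected counts were rounded to whole numbers and scaled by TMM in edgeR 4.0.16 (R 4.3.3). Genes whose counts summed to at least 30 were tested for differences between libraries with a chi-square test, Benjamini-Hochberg adjusted over all of them at 0.05, and an intercept-only edgeR model gave coefficients of variation. Alternatives used DESeq2 1.42.0 size factors, library totals, the second table, other thresholds and each replicate left out. Quantifications were compared with 0.1 added to the TPM, at 5 TPM or more. Transcript shares were computed from the deposited TPM and sequences read from M21 transcripts. Python 3.11.15 with numpy 2.4.6, scipy 1.17.1, pandas 2.3.3 and matplotlib 3.10.9 was used, and the procedures were tested on simulated data. Intervals and limits cover counting error only, since reads without molecular identifiers are not independent molecules.

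The genes and lists were chosen with earlier results of these data known, and the background of genes with as many counts as Clec4e was added after the data were seen. The rule names all 10 genes, every gene of the 2 signalling lists, and other Clec or neighbouring genes whose mean reached 1 TPM. The lectins named from the list of 20, and the marker genes and low neighbours named, were chosen after their values were seen. A gene that the rule names is not reported here. Protein features were planned, and protein sequences are not used here.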

Additional observations from a re-analysis of the deposited data

How the results depend on the processing

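The summed level of the 10 genes depended on the TPM scale, at 252 TPM in the second table and 2164 TPM rescaled over protein-coding genes against 525 TPM as deposited, and ranged between 509 and 545 TPM with 1 replicate left out. The number of genes whose libraries differ was 6765, and between 3514 and 5358 with 1 replicate left out. Genes with a highest library at 2 times the lowest numbered 357, 3988 with no filter on low values, and between 165 and 291 with 1 replicate left out. Of the other Clec genes 4 reached 1 TPM in every library, 1 reached 5 TPM, and 2 reached 1 TPM in the second table. The causes were not tested. Of 72 transcript shares recomputed, 14 moved by more than the SD, all in the second table, and of 50 recomputed gene levels 20 moved, 10 in the second table and 10 when rescaled. With library totals the lowest library became replicate 3 for Clec4d (adjusted chi-square p = 2.34e-14) and replicate 2 for Clec5a (adjusted p = 6.86e-05), against replicates 1 and 3 with TMM, while the highest library of each of the 10 genes was the same with TMM, DESeq2 size factors, library totals and in the second table. The smallest counts, those of Clec4e and Clec5a, limit their shares. No paired analysis was possible because the series has 1 group.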
